A study of Mus musculus with 16 samples.

Results

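The genes described here are 8 genes of cholesterol supply, Stard4, Idi1, Hmgcs1, Sqle, Insig1, Fdps, Lss and Cyp51, measured by RNA sequencing in cardiac fibroblasts sorted from mouse hearts. They were chosen by name, with earlier results of these data known, as the rows with these symbols in 3 tables of normalized counts. All 8 are among the 16135 genes listed in every table. The study asked what loss or gain of the transcription factor TCF21 does in these cells, in the uninjured heart and during infusion of angiotensin II and phenylephrine, a combination that raises blood pressure and drives fibrosis. There were 16 libraries in 6 groups and 3 comparisons, each within its own table. All mice were 8 to 12 weeks old, received tamoxifen and carried a Rosa26 loxP-STOP-loxP EGFP reporter, through which the cells were traced and sorted.

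In the uninjured hearts, 3 libraries came from Tcf21-MerCreMer:Tcf21-fl mice, in which tamoxifen deletes Tcf21, and 3 from Tcf21-MerCreMer mice, taken 2 weeks after tamoxifen. In the infused loss comparison, 2 libraries of Tcf21-MerCreMer:Tcf21-fl mice stood against 3 of Tcf21-MerCreMer mice, after 1 week of infusion. In the infused gain comparison, 2 libraries of Pdgfra-creERT:Col1a1-TCF21 mice, which overexpress TCF21 after tamoxifen, stood against 3 of Pdgfra-creERT mice under the same infusion. The Cre driver is therefore carried by the control mice too, and it differs between the loss and gain arms. The labels do not tie libraries to separate animals, and p-values here reflect the spread from library to library, which may be technical. In bulk RNA of this kind, fewer cells of a type and less RNA per cell cannot be told apart.

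Cells make cholesterol from acetyl-CoA through mevalonate, isoprenoid phosphates, squalene and lanosterol. When sterol in the endoplasmic reticulum is low, the SREBP transcription factors leave it with their escort Scap, are cut in the Golgi and switch on the genes of synthesis and of lipoprotein uptake. INSIG proteins hold Scap back when sterol is plentiful, which closes the loop. Of the 8 genes, 6 encode enzymes of this pathway (Hmgcs1, Idi1, Fdps, Sqle, Lss and Cyp51), Insig1 encodes one of the retention proteins, and Stard4 encodes a carrier that moves sterol between membranes inside the cell. None of them encodes a lipoprotein receptor, so uptake is represented below by a wider list of uptake and intracellular transport genes.

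By GENCODE vM21 on GRCm38, Hmgcs1 (ENSMUSG00000093930) lies on chromosome 13 at 119690379 to 119708260, plus strand, and Idi1 (ENSMUSG00000058258) on the same chromosome at 8885501 to 8892451, plus strand. Insig1 (ENSMUSG00000045294) lies on chromosome 5 at 28071363 to 28078662, plus strand, and Cyp51 (ENSMUSG00000001467) on the same chromosome at 4081145 to 4104746, minus strand. Lss (ENSMUSG00000033105) lies on chromosome 10 at 76531588 to 76557138, plus strand, Sqle (ENSMUSG00000022351) on chromosome 15 at 59315077 to 59331192, plus strand, and Fdps (ENSMUSG00000059743) on chromosome 3 at 89093588 to 89101959, minus strand. The identifier of Stard4 is ENSMUSG00000024378.

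Promoters are shown because these genes moved together from library to library, as described further on. RefSeq promoter windows (GRCm38.p6) were matched for 5 of the 8 genes and are printed for the 250 bases before the RefSeq start, 5′ to 3′ on the gene's strand, and so before the first RefSeq exon; the GENCODE gene starts lie inside the windows of Idi1, Insig1, Lss and Cyp51. They are chr13:119690101-119690350 (Hmgcs1, plus strand), chr13:8885356-8885605 (Idi1, plus strand), chr10:76531355-76531604 (Lss, plus strand), chr5:4104698-4104947 (Cyp51, minus strand) and chr5:28071162-28071411 (Insig1, plus strand). Capitals mark CCAAT or its reverse complement ATTGG, the box bound by NF-Y, a factor known to act with SREBP, and TCACNCCAC, a form of the sterol response element bound by SREBP. Sqle, Fdps and Stard4 are named only.
Hmgcs1: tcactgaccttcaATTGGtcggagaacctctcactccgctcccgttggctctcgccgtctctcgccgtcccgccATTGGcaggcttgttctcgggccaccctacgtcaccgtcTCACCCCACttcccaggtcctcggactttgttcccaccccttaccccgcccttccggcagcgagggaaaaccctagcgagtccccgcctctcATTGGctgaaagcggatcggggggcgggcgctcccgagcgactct
Idi1: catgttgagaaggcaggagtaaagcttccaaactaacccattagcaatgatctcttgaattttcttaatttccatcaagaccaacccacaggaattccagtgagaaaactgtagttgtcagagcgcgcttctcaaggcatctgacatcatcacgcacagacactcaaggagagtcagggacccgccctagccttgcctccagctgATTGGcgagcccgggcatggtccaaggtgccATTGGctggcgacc
Lss: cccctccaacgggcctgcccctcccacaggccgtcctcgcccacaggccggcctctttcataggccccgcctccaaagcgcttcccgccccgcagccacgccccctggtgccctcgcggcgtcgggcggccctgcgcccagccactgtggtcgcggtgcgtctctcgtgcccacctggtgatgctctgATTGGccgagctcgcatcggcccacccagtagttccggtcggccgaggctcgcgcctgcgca
Cyp51: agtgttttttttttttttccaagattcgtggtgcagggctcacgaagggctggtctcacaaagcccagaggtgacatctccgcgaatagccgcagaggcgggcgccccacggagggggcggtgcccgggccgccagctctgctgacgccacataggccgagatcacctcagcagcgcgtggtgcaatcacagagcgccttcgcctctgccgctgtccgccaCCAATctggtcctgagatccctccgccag
Insig1: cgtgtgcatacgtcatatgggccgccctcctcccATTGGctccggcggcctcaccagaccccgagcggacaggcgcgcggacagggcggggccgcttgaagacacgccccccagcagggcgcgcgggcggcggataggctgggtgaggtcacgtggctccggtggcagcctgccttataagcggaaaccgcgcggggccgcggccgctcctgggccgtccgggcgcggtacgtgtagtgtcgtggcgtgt

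Searched on both strands, CCAAT was found in 5 of these 5 windows. Some genes have several windows, and a gene was counted where at least 1 of its windows held the letters: by this count 14 of the 15 synthesis enzymes with a window held CCAAT, against 40.4% of the 10681 tested genes with a window. Hmgcs1 held 3 such boxes, Idi1 held 2, and Lss, Cyp51 and Insig1 held 1 each. TCACNCCAC was found in Hmgcs1 alone of the 5, at bases 137 to 129 before its start, against 1.22% of tested genes. GGGCGG, the box bound by Sp1, was found in 5 of 5, against 62.1% of tested genes. CAGCTG, an E-box of the kind that basic helix-loop-helix factors can bind, was found in Idi1 alone, at bases 51 to 46, against 14.7% of tested genes. It lies next to an ATTGG and overlaps no other match. These matches describe letters in a window and are not binding sites.

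Before the results, the libraries were checked. Normalized counts summed to between 27814940 and 40970391 per library. Tcf21 moved as labelled: it was at 1244 to 1718 in uninjured loss libraries, against 7507 to 8081 in their controls, at 185 and 258 in infused loss libraries, against 1510 to 2814 in theirs, and at 13502 and 14820 in gain libraries, against 5145 to 6235 in theirs. All 10 fibroblast markers were listed in every table and none was at 0 in every library. Their summed normalized counts were 2957970 to 4616810 per library, against at most 15687 for endothelial, 14822 for mural, 4866 for myeloid and 1064 for cardiomyocyte markers. The uninjured loss library 2 was the highest of its table for 8 of the 8 genes, the gain library 2 likewise for 8 of 8, and the infused loss control 2 for 5 of 8. Part of the log2 fold changes that rest on them are also given without them. The medians and the correlations between genes are given only with them.

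Loss of Tcf21 in uninjured hearts was accompanied by higher levels of Stard4, Idi1 and Fdps. Stard4, the sterol carrier, rose 2.99-fold, Idi1, which isomerizes isopentenyl diphosphate, rose 2.16-fold, and Fdps, which makes farnesyl diphosphate, rose 1.86-fold. The other 5 genes did not pass the test, and 0 of the 8 fell. Of all 15544 tested genes, 1.63% rose and 1.96% fell. The median log2 fold change of the 8 genes was 0.70, against -0.01 over all tested genes.

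Hmgcs1 encodes the cytosolic HMG-CoA synthase, an early enzyme of the pathway. It had 2679, 4725 and 2443 normalized counts in loss libraries, against 2602, 2551 and 2587 in controls. The groups overlapped, with 1 loss library far above the rest and 1 below every control. Its log2 fold change on log2(value + 1), the scale of every fold change here, was 0.28 (95% interval -0.20 to 0.76, limma adjusted p = 0.485).

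Idi1 had 1091, 1942 and 1295 normalized counts in loss libraries, against 666, 688 and 589.5 in controls. Every loss library lay above every control (1443 ± 444 against 648 ± 51.7, SD, n = 3 each). The log2 fold change was 1.11 (SE 0.196, limma adjusted p = 0.0244). Fdps had 1607, 2935 and 1799 normalized counts in loss libraries, against 1178, 1049 and 1062 in controls, again without overlap (2114 ± 718 against 1096 ± 71.2, SD, n = 3 each). Its log2 fold change was 0.90 (SE 0.201, limma adjusted p = 0.0477), just under the threshold of 0.05. When any single control was left out neither gene passed, with limma adjusted p between 0.0758 and 0.119 for Idi1 and between 0.108 and 0.180 for Fdps, and without loss library 3 Fdps did not pass either (adjusted p = 0.0608).

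Sqle encodes squalene epoxidase, a rate-limiting enzyme of the later pathway. It had 651, 1406 and 667 normalized counts in loss libraries, against 484, 502 and 468 in controls, without overlap. The loss library 2 stood far above the other loss libraries, and the log2 fold change of 0.81 did not pass (95% interval 0.20 to 1.42, limma adjusted p = 0.130). Lss, lanosterol synthase, which closes the sterol ring, had 270.4, 908 and 662 normalized counts in loss libraries, against 355, 414 and 319 in controls. The loss library 1 lay below every control and the other 2 above them, at a log2 fold change of 0.60 (95% interval -0.27 to 1.46, limma adjusted p = 0.404). Without loss library 1 Lss passed, at 1.10 (limma adjusted p = 0.0188). Cyp51, lanosterol demethylase, had 1245, 1738 and 1096 normalized counts in loss libraries, against 899, 923 and 879 in controls. These groups did not overlap either, and the log2 fold change of 0.57 did not pass (95% interval 0.20 to 0.93, limma adjusted p = 0.0898).

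Insig1, the retention protein that SREBP itself induces, had 2061, 3108 and 1802 normalized counts in loss libraries, against 1913, 1680.4 and 1643 in controls. The groups overlapped, and the log2 fold change was 0.38 (95% interval -0.04 to 0.79, limma adjusted p = 0.276). Stard4 had 497, 659 and 582 normalized counts in loss libraries, against 203, 192 and 181 in controls. It had the widest gap of the 8 genes: its lowest loss library, at 497, stood far above its highest control, at 203 (579 ± 80.7 against 192 ± 10.9, SD, n = 3 each). The log2 fold change was 1.58 (SE 0.166, 95% interval 1.20 to 1.96, limma adjusted p = 0.00276). It passed whichever library was left out, at 1.48 to 1.69.

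**Figure D1:**
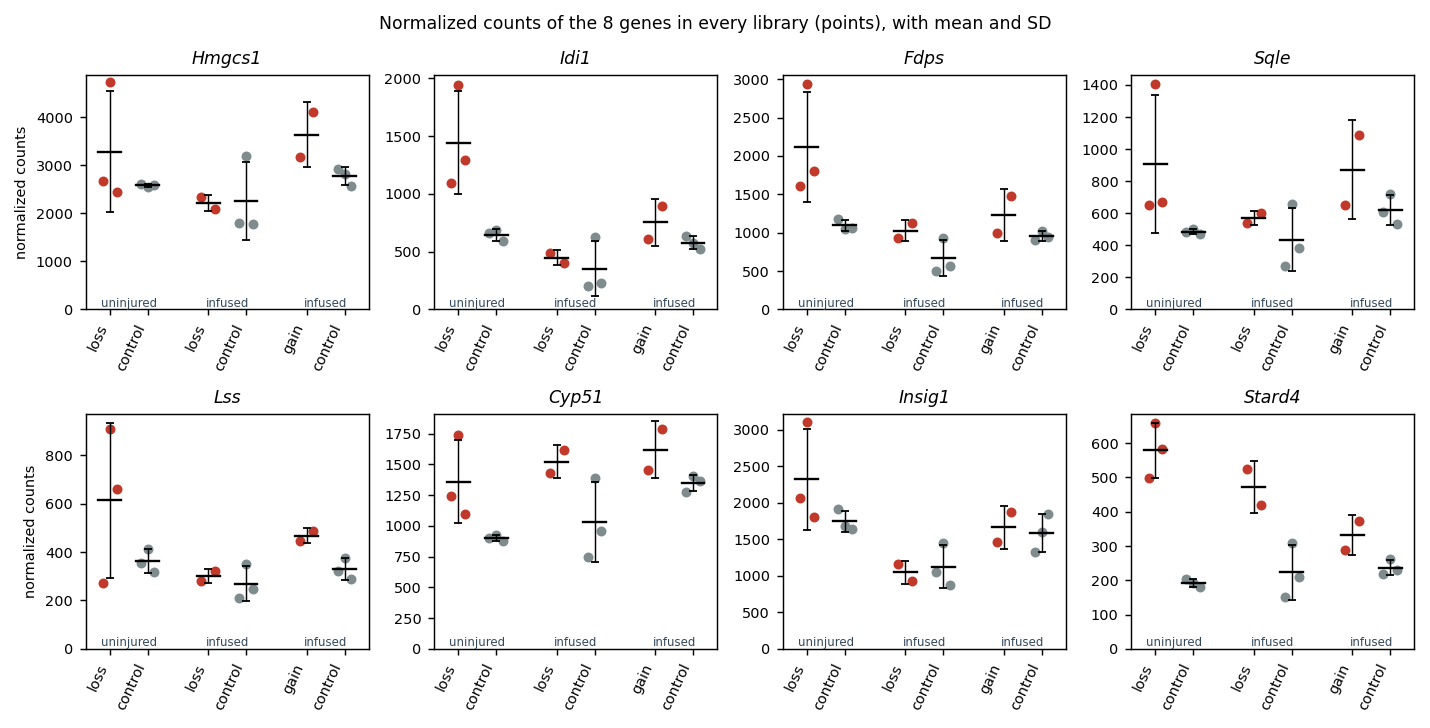
Normalized counts (y axis, from 0, a separate scale for each gene) of the 8 genes in each library (points) of the loss or gain groups (red) and their controls (grey), with the mean (bar) and SD (whisker), for uninjured loss, infused loss and infused gain from left to right. Stard4 in uninjured hearts stands at 497 to 659 in loss libraries, against 181 to 203 in controls, while most other genes spread widely within the loss or gain group.

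In 5 of the 8 genes (Stard4, Idi1, Fdps, Sqle and Cyp51) every uninjured loss library lay above every control, against 14.1% of all tested genes. Averaged over the 8 genes, the log2 deviation from the control mean was 0.43, 1.29 and 0.61 in loss libraries 1, 2 and 3, against 0.04, 0.03 and -0.07 in controls. The loss library 2 stood above the other loss libraries, and all 3 stood above the controls. Without it, Stard4, Idi1 and Fdps still passed (limma adjusted p = 0.0112, 0.0275 and 0.0388). The log2 fold change was then -0.01 for Hmgcs1, 0.44 for Sqle, 0.23 for Lss, 0.38 for Cyp51 and 0.15 for Insig1. Markers of other cells also moved: summed endothelial markers (8 of 8 listed) were 11991 to 13643 in loss libraries, against 15499 to 15687 in controls, and summed mural markers (8 of 8 listed) were 8387 to 9504, against 12861 to 14822. Erythroid markers (5 of 7 listed) reached 1029 in loss library 1, against at most 31.2 in controls. Their part in the result was not tested.

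During infusion, 0 of the 8 genes passed in the loss comparison (2 loss against 3 control libraries), where 0.324% of 14799 tested genes rose and 0.588% fell. At an unadjusted limma p below 0.05 there were 3 genes, Stard4, Fdps and Cyp51, all higher in loss libraries, against 7.27% of tested genes. The median log2 fold change of the 8 was 0.51, against 0.00 over all tested genes. Every loss library lay above every control for 2 of 8, Stard4 and Cyp51, against 17.3% of tested genes, a share near the background.

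Stard4 had 526 and 418 normalized counts in infused loss libraries, against 150.2, 310.1 and 211 in controls. Both loss libraries lay above all controls (472 ± 76.1 against 224 ± 80.8, SD, n = 2 and 3), at a log2 fold change of 1.13 (95% interval 0.41 to 1.85, limma adjusted p = 0.168). Cyp51 had 1426 and 1615 normalized counts in loss libraries, against 746, 1389 and 955 in controls. The lower loss library was barely above the highest control, and the log2 fold change was 0.61 (95% interval 0.02 to 1.19, limma adjusted p = 0.298). Fdps had 926 and 1124 normalized counts in loss libraries, against 507, 937 and 570.0 in controls, at a log2 fold change of 0.66 (95% interval 0.03 to 1.28, limma adjusted p = 0.292). The loss library 1 lay just below the highest control.

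For the other 5 genes the control 2 was higher than both loss libraries. Idi1 had 492 and 403 normalized counts in loss libraries, against 202, 629 and 226 in controls (log2 fold change 0.54, limma adjusted p = 0.604). The control 2 stood far above the other controls. Sqle had 542 and 602, against 269, 655 and 383 (0.49, limma adjusted p = 0.517). Lss had 281 and 323 in loss libraries, against 209.8, 349 and 249 in controls (0.19, limma adjusted p = 0.716). All 5 genes lay within the range of their controls in both loss libraries. Hmgcs1 had 2336 and 2099 in loss libraries, against 1802, 3192 and 1787 in controls (0.03, limma adjusted p = 0.968). Insig1 had 1162 and 933 in loss libraries, against 1056, 1448 and 871 in controls (-0.08, limma adjusted p = 0.884).

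The mean log2 deviation of the 8 genes was 0.46 and 0.43 in the infused loss libraries, against -0.39, 0.58 and -0.19 in controls 1, 2 and 3, so the control 2 stood above both loss libraries. Without the control 2 the log2 fold changes were 1.39 for Stard4, 1.06 for Idi1, 0.92 for Fdps and 0.83 for Sqle, and still 0 of 8 passed. Several marker sums differed between these groups without overlap. Endothelial markers (8 of 8 listed) summed to 2743 to 3154 in loss libraries, against 3663 to 6646 in controls. Single ones went both ways: of the 7 tested, 4 had a log2 fold change above 0 (median 0.05). Myeloid markers (9 of 10 listed) summed to 459 to 763, against 852 to 989. Erythroid markers (5 of 7 listed) were 151 to 460.3, against 19.3 to 44.9, and the 14 immediate early genes, which rise with handling and stress of cells, summed to 229947 to 283066, against 326672 to 519356. Their part in the result was not tested.

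With TCF21 gain during infusion, 0 of the 8 genes passed (2 gain against 3 control libraries), where 1.57% of 15369 tested genes rose and 2.57% fell. At an unadjusted limma p below 0.05 there were 3, Stard4, Hmgcs1 and Lss, all higher in gain libraries, against 8.93% of tested genes. The median log2 fold change of the 8 was 0.37, against 0.01 over all tested genes. Both gain libraries lay above all controls for 4 of 8 genes, Stard4, Hmgcs1, Lss and Cyp51, against 19.1% of tested genes.

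Lss had 448 and 489 normalized counts in gain libraries, against 322, 377 and 289 in controls, at a log2 fold change of 0.51 (95% interval 0.13 to 0.89, limma adjusted p = 0.139). Stard4 had 289.6 and 373 in gain libraries, against 219, 261 and 229 in controls (0.48, 95% interval 0.04 to 0.91, limma adjusted p = 0.207). Hmgcs1 had 3166 and 4112 in gain libraries, against 2927, 2825 and 2563 in controls (0.38, 95% interval 0.08 to 0.68, limma adjusted p = 0.153). All 3 genes lay above their controls in both gain libraries, by margins that did not pass the test. Cyp51 did so too, with 1456 and 1785 in gain libraries, against 1277, 1405 and 1361 in controls (0.26, limma adjusted p = 0.263).

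For Sqle, Fdps and Idi1 only the gain library 2 stood clear of the controls. Sqle had 652 and 1089 normalized counts in gain libraries, against 606, 719 and 535 in controls (log2 fold change 0.45, limma adjusted p = 0.323). Fdps had 996 and 1475, against 900.0, 1022 and 946 (0.34, limma adjusted p = 0.311), and Idi1 had 612 and 897, against 635, 579 and 520.1 (0.36, limma adjusted p = 0.324). Insig1 overlapped throughout, with 1458 and 1871 in gain libraries, against 1330.2, 1595 and 1849 in controls (0.07, limma adjusted p = 0.868). The mean log2 deviation of the 8 genes was 0.15 and 0.57 in gain libraries 1 and 2, against -0.04, 0.10 and -0.06 in controls. Without gain library 2 the log2 fold changes ran from -0.11 (Insig1) to 0.45 (Lss).

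The gain libraries also had lower summed fibroblast markers (10 of 10 listed), at 3043100 to 3291630, against 4325740 to 4616810 in controls. Endothelial markers (8 of 8 listed) summed to 5170.0 to 6395, against 7951 to 11020 in controls. Single ones went both ways, with 4 of the 8 at a log2 fold change above 0 (median 0.07). The 14 immediate early genes summed to 342680 to 402014, against 549373 to 817750. Cardiomyocyte markers (10 of 10 listed) summed to 992 to 1064, against 799 to 854. Single ones went both ways: of the 9 tested, 4 had a log2 fold change above 0, with a median of -0.06. Erythroid markers (5 of 7 listed) summed to 65.2 to 176, against 15.1 to 63.9. The part of these markers and genes in the result was not tested.

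**Figure D2:**
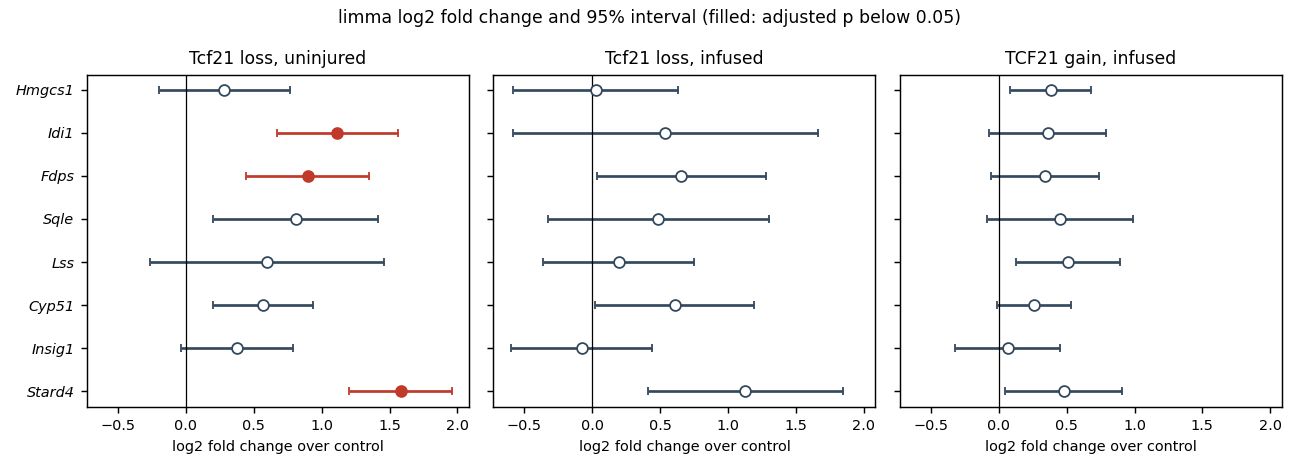
Log2 fold change over control (x axis) of each gene (y axis) with its 95% interval, in the 3 comparisons, with filled red points where the limma adjusted p is below 0.05. Only Stard4, Idi1 and Fdps in uninjured loss are filled, and the intervals of the infused comparisons are wide or reach close to 0.

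The 3 responses were then compared as differences of log2 fold changes, each taken within its own table. Infused loss minus uninjured loss ran from -0.58 (Idi1) to 0.04 (Cyp51), and 0 of the 8 genes passed, where 0.149% of 14130 tested genes did. For Stard4 the difference was -0.45 (95% interval -1.22 to 0.32, limma adjusted p = 0.646). Infused gain minus infused loss ran from -0.65 (Stard4, 95% interval -1.51 to 0.21, limma adjusted p = 0.440) to 0.36 (Hmgcs1), and 0 of the 8 passed, where 2.93% of 14319 tested genes did. At an unadjusted limma p below 0.05 there were 0 in either, against 11.6% and 16.3% of tested genes. The intervals are wide, so these values do not show that the responses were alike. Gain and loss did not give log2 fold changes of opposite sign in 7 of the 8 genes: only Insig1 was below 0 in infused loss and above 0 in gain, and neither value passed.

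The 8 genes varied together from library to library. Taking each library's log2 deviation from the control mean of its own table, Pearson's r of a gene with the mean of the others over the 16 libraries was 0.97 for Fdps, 0.96 for Sqle, 0.95 for Idi1, 0.92 for Cyp51, 0.84 for Stard4, 0.77 for Hmgcs1, 0.75 for Lss and 0.70 for Insig1. These are descriptions over libraries that share tables and groups. Insig1 followed the others less in the infused tables (r = 0.49 and 0.39 within the loss and gain tables) than in the uninjured table (r = 0.88), values whose difference was not tested.

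Of 13931 other genes tested in all tables, the 6 most like the mean of the 8 included Fdft1 (r = 0.93), Msmo1 (0.92), Scd2 (0.91), Lpcat3 (0.90) and Shld2 (0.89). Fdft1, squalene synthase, and Msmo1, a sterol methyl oxidase, are enzymes of the same pathway, and Scd2 is a stearoyl-CoA desaturase. Lpcat3 remodels phospholipids, and Shld2 belongs to the shieldin complex of DNA repair. Fdft1 had 798, 1973 and 977 normalized counts in uninjured loss libraries, against 853, 817 and 683 in controls, the same single high library as in the 8 genes.

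**Figure D3:**
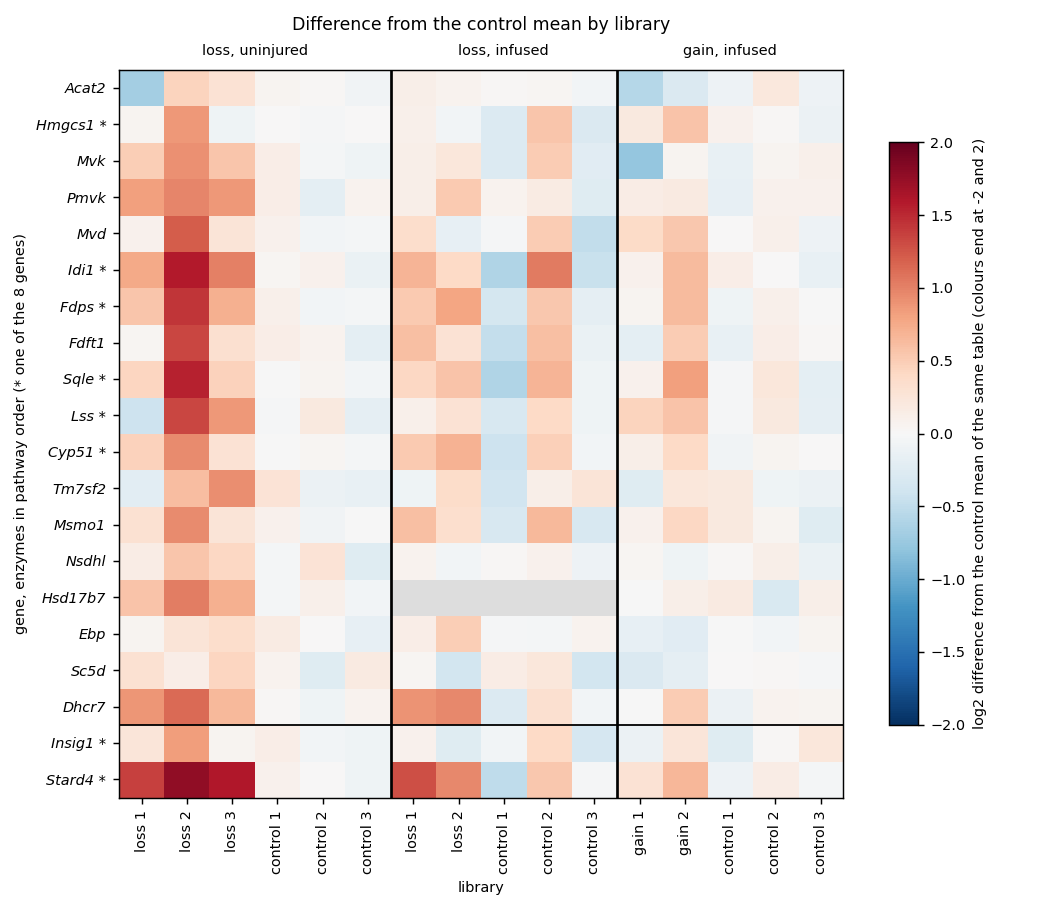
Log2 difference of each library (columns) from the control mean of its own table, for synthesis enzymes in pathway order and Insig1 and Stard4 (rows, with a star on the 8 genes). Red is higher and blue lower than the control mean, grey is not listed, and the columns of uninjured loss library 2, infused loss control 2 and gain library 2 are red for most of the starred genes.

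Among the 14 synthesis enzymes outside the 8 genes, 2 rose and 0 fell in uninjured loss, with a median log2 fold change of 0.51. Dhcr7, the dehydrocholesterol reductase of the last step, rose 1.85-fold (1521 ± 263 against 815 ± 43.8 normalized counts, SD, n = 3 each, log2 fold change 0.89, limma adjusted p = 0.0144). Hsd17b7, a sterol ketoreductase, rose 1.70-fold (1016 ± 170 against 591 ± 36.1, SD, n = 3 each, limma adjusted p = 0.0278), and it is not listed in the infused loss table. Neither gene passed when any single control was left out (limma adjusted p = 0.0579 to 0.0783 for Dhcr7 and 0.0899 to 0.131 for Hsd17b7), and Hsd17b7 did not pass without loss library 2 either (adjusted p = 0.0503). In infused loss 1 of 13 tested enzymes outside the 8 rose and 0 fell, with a median log2 fold change of 0.22. Dhcr7 in infused loss had 1411 and 1472, against 627, 941 and 727 in controls, without overlap (0.93, limma adjusted p = 0.0793). In gain, 0 of 14 of these enzymes passed (4 at an unadjusted limma p below 0.05, against 20.4% of tested genes), with a median log2 fold change of 0.10.

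Of the 13 tested genes of uptake and intracellular transport other than Stard4, 0 passed in uninjured loss, 0 of 11 in infused loss and 0 of 13 in gain, with 6, 2 and 2 at an unadjusted limma p below 0.05. The shares of all tested genes at that unadjusted p, in either direction, were 21.2% in uninjured loss, 16.1% in infused loss and 20.4% in gain, so the counts in infused loss and gain are near the background. In uninjured loss Mylip, a ubiquitin ligase that marks lipoprotein receptors for degradation, was at a log2 fold change of 0.50 (limma adjusted p = 0.0579), and Npc2, which carries cholesterol out of lysosomes, was at 0.27 (limma adjusted p = 0.0706). Of the 10 tested genes of SREBP regulation other than Insig1, 0 passed in any comparison, with 4, 2 and 0 at an unadjusted limma p below 0.05 in uninjured loss, infused loss and gain, against the same shares of 21.2%, 16.1% and 20.4%. In uninjured loss the SREBP genes themselves, Srebf1 and Srebf2, had log2 fold changes of 0.49 (limma adjusted p = 0.0887) and 0.34 (limma adjusted p = 0.221). Insig2, the second retention protein, was at 0.26 (limma adjusted p = 0.136).

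Of 15 fatty acid synthesis genes, 2 rose and 0 fell in uninjured loss: Scd2 by 0.66 and Me1, malic enzyme, which supplies NADPH, by 0.50 on the log2 scale (limma adjusted p = 0.0371 and 0.0175). Scd2 did not pass when any single control was left out (limma adjusted p = 0.115 to 0.135), nor did Me1 without control 1 or control 2 (limma adjusted p = 0.0680 and 0.116). Fasn, fatty acid synthase, was at 0.21 (limma adjusted p = 0.470) and Scd1 at 0.61 (limma adjusted p = 0.0684). None of the 15 passed in infused loss or gain by limma, with 1 and 4 at an unadjusted p below 0.05, against 16.1% and 20.4% of tested genes.

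The 11 genes of liver X receptor targets, efflux and esterification, which act when sterol is plentiful, included 1 that rose in uninjured loss, Lpcat3, by 0.52 on the log2 scale (limma adjusted p = 0.0349). Lpcat3 did not pass when any single control was left out (limma adjusted p = 0.104 to 0.157) or without loss library 2 (adjusted p = 0.0650). In infused loss 0 of 11 passed by limma, with 3 at an unadjusted p below 0.05, against 16.1% of tested genes. In gain, 2 of the 11 fell and 0 rose, where 2.57% of all tested genes fell and 1.57% rose. At an unadjusted limma p below 0.05 there were 6, in either direction, against 20.4% of tested genes. The list median was -0.48, against 0.01 over all tested genes. Abca1, the cholesterol efflux pump, had 4355 and 3916 normalized counts in gain libraries, against 6967, 6263 and 6472 in controls, 1.59-fold lower (limma adjusted p = 0.0137). Apoe, which carries the exported lipid, had 9386 and 9592, against 25295, 18609 and 43780 in controls, 2.89-fold lower (limma adjusted p = 0.0435). Both fell clear of the controls, and both calls were lost without either gain library or without control 1. In uninjured loss Apoe had 73403, 127627 and 132686, against 63883, 65557 and 58245 in controls, without overlap (0.78, limma adjusted p = 0.0693), and Abca1 was at 0.10 (limma adjusted p = 0.696). In infused loss Abca1 was lower too, at a log2 fold change of -0.42 (limma adjusted p = 0.305), and Apoe was at 0.39. Infused gain minus infused loss was -0.25 for Abca1 (limma adjusted p = 0.595) and -1.92 for Apoe (limma adjusted p = 0.206). Neither difference passed. The lower fibroblast and immediate early gene sums of the gain libraries, given above, stand beside the lower Abca1 and Apoe in gain too.

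**Figure D4:**
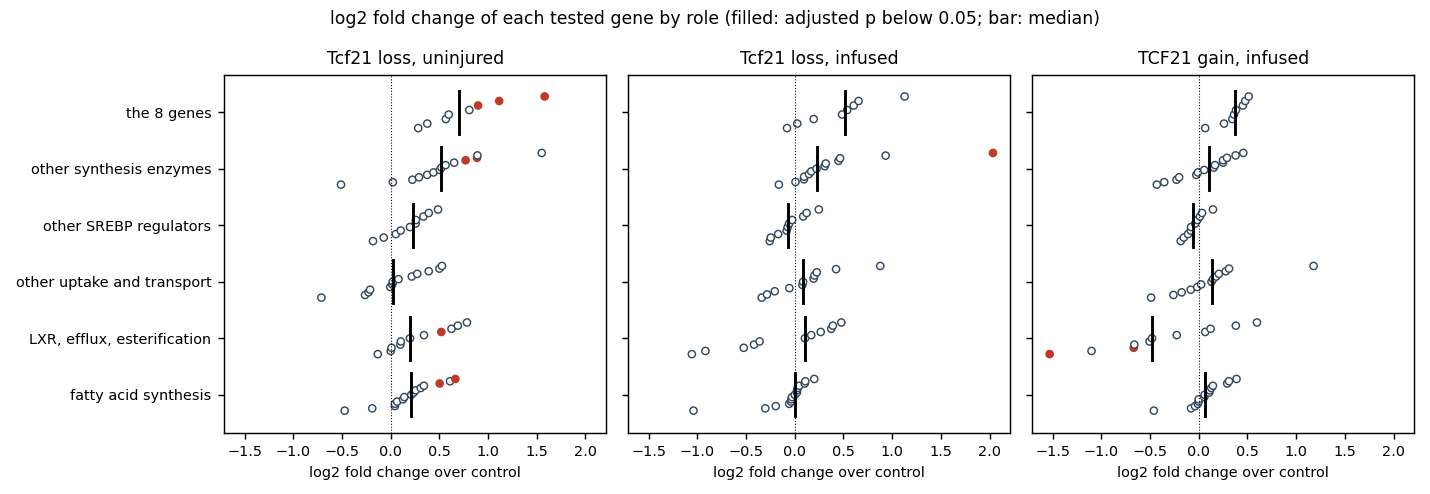
Log2 fold change over control (x axis) of each tested gene (points), by role (rows), with the median of each row as a bar and filled red points where the limma adjusted p is below 0.05. The row of the 8 genes has a median of 0.70 in uninjured loss, 0.51 in infused loss and 0.37 in gain, and the efflux row in gain has a median of -0.48 with Abca1 and Apoe filled.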

How the data were processed

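RNA of flow-sorted mouse cardiac fibroblasts was amplified by a low-input SMART-seq V4 kit, as the labels' protocols state. Kallisto, DESeq2 and GRCm38 are listed in the submitters' processing notes, with no role stated; for their versions and the transcript annotation, the sources used here give nothing. Each of the 3 tables deposited by the authors holds a signal, normalized counts per gene, as the table names and values show, with a separate normalization per table. Values are not whole numbers, so no count model was fitted, and depth is known only as the normalized sum per library. 

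Tests ran on log2(value + 1) for genes averaging 10 or more within a table, a scale that understates changes of low genes. The tool was limma 3.58.1 in R 4.3.3 (variance trend, two-sided, no covariate, Benjamini-Hochberg adjusted p below 0.05 over all genes of the table). Each fit held the 2 groups of a comparison; differences between comparisons were contrasts over 4 group means. The method was tested on simulated data. The 8 genes, the 5 pathway lists (72 genes, 64 besides the 8), the marker lists and the tests were chosen with earlier results of these data known. Named genes are the 8, Tcf21, a fixed panel that includes Srebf1, Srebf2, Insig2, Fasn, Scd1 and Abca1, pathway genes past the threshold or among the 3 smallest p of a list, and the 6 most alike genes; not all of these are reported here. Alternatives varied the pseudocount, filter, scaling, variance trend, library weights and replicate block, and left out each library. Levels were not compared between tables.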

Additional observations from a re-analysis of the deposited data

How the results depend on the processing

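With 8 genes and 3 small comparisons, the counts of calls depended on the settings. In uninjured loss, 3 of the 8 genes passed, against 1 without the variance trend (Stard4), 5 with library weights and 1 to 4 with a library left out (1 without each control). Of the other pathway genes 5 passed there, against 8 with a filter of 50, 0 without the trend, 13 with library weights, 3 with the replicate block and 0 to 14 with a library left out. Among the 8 genes, Fdps also lost its uninjured loss call with the replicate block (limma adjusted p = 0.0689). Fdps did not pass either with no filter beyond a mean above 0 (limma adjusted p = 0.0505). In infused loss, 0 of the 8 genes and 1 other pathway gene passed, against 1 (Stard4, limma adjusted p = 0.0372) and 9 with the replicate block, and 0 to 1 other pathway genes with a library left out. In gain, 0 of the 8 and 2 other pathway genes passed, against 1 other gene with equal sums, 0 without the trend, 6 with the replicate block and 0 to 3 with a library left out. The cause was not tested. The labels do not say that replicate numbers pair the samples. Deviations of same-numbered libraries had r of -0.05 to 0.03 in uninjured loss, -0.04 and 0.18 in infused loss and 0.06 and 0.10 in gain. In gain both tested libraries correlated best with their own number, and in the other comparisons not every library did. With 2 tested libraries centred on their mean, the r values of 1 library mirror those of the other. These values therefore cannot decide pairing in the infused comparisons. With the block, all genes called numbered 227, 1462 and 1842 in these 3 comparisons, against 557, 135 and 637 without it.

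Log2 fold changes of genes that had not passed changed sign in places. In infused loss, Hmgcs1 was -0.25 with library weights and -0.12 with the replicate block, and Lss -0.020 with weights. For infused minus uninjured loss, Cyp51 was -0.28 with weights. For gain minus loss, Idi1 was 0.32 and Sqle 0.28 with weights, and Sqle 0.082 with equal sums. With a library left out, Hmgcs1 ran from -0.012 to 0.46 in uninjured loss and from -0.12 to 0.30 in infused loss, and Insig1 from -0.25 to 0.12 in infused loss and from -0.11 to 0.25 in gain. The difference of infused and uninjured loss ran from -0.44 to 0.038 for Hmgcs1, -0.62 to 0.043 for Sqle, -0.42 to 0.026 for Fdps and -0.17 to 0.28 for Cyp51. That of gain and loss ran from -0.69 to 0.12 for Idi1, -0.40 to 0.34 for Sqle and -0.053 to 0.33 for Insig1. Where leaving out a library leaves its group with 1, that library is assumed to vary like the other group.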
